A study of Mus musculus with 4 samples.

Results

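The rim of the popliteal lymph nodes (PLNs) was compared with their interior in spatial transcriptomics sections. A rim spot was an in-tissue spot with fewer than 6 in-tissue neighbours on the hexagonal array, so that it touched the tissue outline or a hole in the section, and an interior spot had all 6. Of the 6119 in-tissue spots, 2681 held at least 500 UMIs (unique molecular identifiers, each marking 1 captured transcript) and were used, 1177 of them at the rim and 1504 in the interior. A spot covers several cells, so the values describe small regions and not single cells.

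PLNs of male C57BL/6 mice were sectioned in 4 frozen blocks, each block on its own capture area of a Visium slide. WT mice gave 10 PLNs from 5 mice at 5.5 months of age. TNF-Tg mice, which carry a human TNF transgene and develop inflammatory-erosive arthritis, gave 6 PLNs from 3 mice at 5.5 months (Early arthritis) and 6 PLNs from 3 mice in each of 2 blocks at 8.5 to 9 months (Advanced 1 and Advanced 2). Evans blue dye had been injected into the hindpaw of all mice to find the node. The PLNs of an area were pooled here because spots were not assigned to single nodes, so the capture area was the replicate, WT and Early had 1 area each, and p-values measure the spread of the rim difference between 4 areas that also differ in genotype and age. The rim of a node carries the capsule, the subcapsular sinus that receives afferent lymph, and the outer cortex with its B cell follicles, while adipose tissue surrounds the capsule. T cells fill the paracortex deeper in, and the medulla holds cords of plasma cells between sinuses lined by macrophages and lymphatic endothelium. B cells are drawn into follicles by Cxcl13, and T cells are drawn to the paracortex by Ccl19 and Ccl21.

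Rim spots were far deeper than interior spots. The 500 UMI minimum kept 86.2% of rim spots and 23.8% of interior spots in WT, 85.4% and 29.6% in Early, 72.7% and 33.8% in Advanced 1, and 80.1% and 35.7% in Advanced 2. The rim exceeded the interior by 50.4 ± 10.6 percentage points (SD, n = 4 areas), in 4 of 4 areas, and the exact paired permutation test (two-sided) gave the smallest p that 4 areas allow, which is above 0.05. Among the spots kept, the median rim spot held 3926.5 UMIs in WT, 7325 in Early, 3988 in Advanced 1 and 4861.5 in Advanced 2, against 1297.5, 1873, 1641 and 1427 UMIs in the interior. The rim spots summed to 1428028 UMIs in WT, 3905039 in Early, 1602251 in Advanced 1 and 2044840 in Advanced 2, and the interior spots to 318493, 1175393, 1595405 and 994508. The fall in depth came within 1 step of the edge: over all spots, the median dropped from 3166 to 318 UMIs between the first and the second row in WT, from 5541 to 270 in Early, from 2113 to 206 in Advanced 1 and from 3263 to 315 in Advanced 2. Because depth moved with position, the main lists and genes below are also given for spots matched on UMIs, a comparison that was added with the data in view and was not run for the Advanced against Early test. Matching took the same number of rim and interior spots of an area from every narrow range of UMIs, 102 of each in WT, 222 in Early, 192 in Advanced 1 and 198 in Advanced 2. The median rim spot then held 1583.5 UMIs in WT, 3192.5 in Early, 3162 in Advanced 1 and 2483 in Advanced 2, against 1614, 3148.5, 3096.5 and 2493 in the interior.

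**Figure D1:**
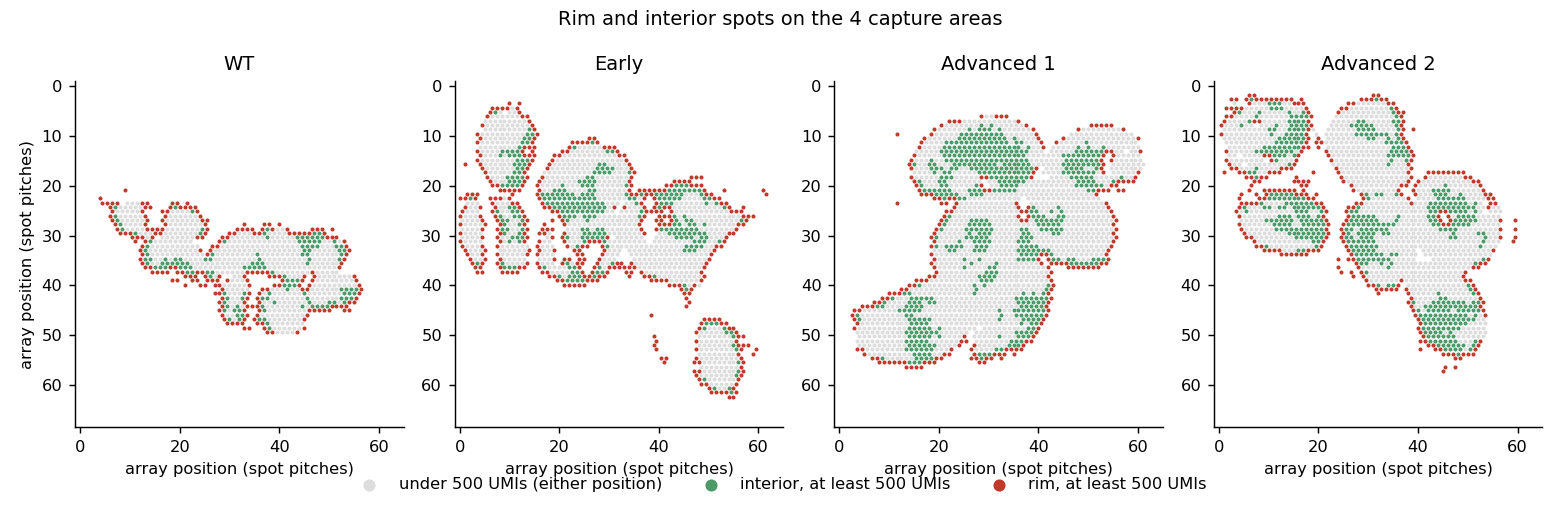
In-tissue spots of each capture area at their array positions, in units of the distance between neighbouring spots. Red spots are rim and green spots interior spots with at least 500 UMIs, and grey spots of either position held fewer. The 218 to 408 red spots of an area trace the outline of the tissue, in which touching nodes are joined, and of holes in the section. The WT tissue, from 10 PLNs, forms 1 piece of at least 20 touching spots. The tissue of 6 PLNs each forms 4 such pieces in Early, 1 in Advanced 1 and 2 in Advanced 2.

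Summed over spots, 339 genes were higher at the rim and 197 were lower, of 11640 tested with the area as a block (edgeR's quasi-likelihood test, adjusted p under 0.05 after Benjamini-Hochberg adjustment). These are 2.91% and 1.69% of the genes tested. Of the genes called higher, 300 were higher in 4 of 4 areas, and 178 of those called lower were lower in 4 of 4. Large differences were mostly at the rim, where 61 genes were at least 2-fold higher, against 20 that were at least 2-fold lower. The balance of directions depended on the scaling. With total UMIs as the only scaling, 208 genes were higher and 381 lower, so that the higher share of the calls fell from 63.2% to 35.3%, and the median log2 difference of all genes moved from -0.01 to -0.09. Each area weighed on the counts: 538 genes were higher and 373 lower without WT, 138 and 88 without Early, 124 and 60 without Advanced 1, and 92 and 37 without Advanced 2. In matched spots 100 genes (0.989% of 10107 tested) were higher at the rim and 68 (0.673%) were lower. The genes called in both comparisons numbered 71 higher, which is 20.9% of the calls from all spots and 71% of those from matched spots, and 31 lower, 15.7% and 45.6%.

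Adipocyte genes led the rim. Of 13 adipocyte genes tested, 12 were higher at the rim and 0 lower, with a median log2 difference of 2.28 against -0.01 over all genes, and in matched spots 10 of 13 were higher. DESeq2 gave an adjusted p for 5 of the 13, and these 5 passed. Car3 (ENSMUSG00000027559, chromosome 3 from 14863512 to 14872523 of GRCm38), a carbonic anhydrase abundant in fat, took 1.16 of every 10000 UMIs at the rim of WT, 0.855 in Early, 2.75 in Advanced 1 and 2.68 in Advanced 2, against 0.534, 0.128, 0.176 and 0.131 in the interior. Its 4 rim values lay above all 4 interior values, and it had the largest log2 difference of the 12 rim genes named by size, 3.46 (SE 0.25, adjusted p = 8.44e-09, edgeR) and 3.21 in matched spots. Adipoq, which encodes adiponectin, was higher by 2.88 (SE 0.32, adjusted p = 4.43e-06, edgeR), Retn, which encodes resistin, by 2.70, Cfd, the serine protease adipsin, by 2.67 and Cidec, a lipid droplet protein, by 2.31 on the log2 scale. Plin1, which coats lipid droplets, was higher by 1.78, and Cyp2e1, a cytochrome P450 that fat also expresses, by 2.22. The rim share of the whole list, in which Fabp4 had the most UMIs, was 17.1 of every 10000 UMIs in WT, 13.4 in Early, 29.1 in Advanced 1 and 33.5 in Advanced 2, against 13.1, 7.13, 9.45 and 9.35 in the interior. Every rim lay above every interior, although the Early rim barely exceeded the WT interior, and the 2 Advanced rims were the highest. In matched spots the Early rim (12.2) lay below the WT interior (12.5). WT was the least clear, since its spots from the third row inward took 20.4 of every 10000 UMIs, more than its rim, and in matched spots its rim to interior ratio was 1.06, against 1.71 in Early, 3.06 in Advanced 1 and 3.98 in Advanced 2. These UMIs came from few spots: after thinning each spot to 500 UMIs, between 60.2% and 68.3% of the list's rim UMIs lay in 10% of the rim spots. The part of adipose tissue in the other rim differences was not tested. The list had 13 calls without WT, 13 without Early, 8 without Advanced 1 and 9 without Advanced 2. Among spots with 500 to 2000 UMIs, Cfd (log2 difference -0.37) and Fabp4 (-0.13) were no longer higher.

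Other tissue of the node's surroundings was less marked. Of 15 capsule and fibroblast genes, 1 was higher at the rim and 0 lower, with a median log2 difference of -0.05. In matched spots 0 of 14 passed, all 14 had negative differences and the median was -0.32. The gene called in all spots was Mfap5, a microfibril protein (log2 difference 1.67, adjusted p = 0.0225, edgeR), with 110 UMIs in all, higher at the rim in 3 of 4 areas and too sparse to be tested in matched spots. The list had 3 higher genes without WT and 0 without Early, without Advanced 1 or without Advanced 2. Collagen and proteoglycan genes did not pass, among them Dcn, which encodes decorin (0.20, adjusted p = 0.382, edgeR). Of 10 smooth muscle genes 2 were higher, Acta2, the smooth muscle actin (0.73, adjusted p = 0.0045, edgeR), and Myl9, a myosin light chain (0.80), and neither passed in matched spots (0.21 and 0.34) or without either Advanced area. Of 3 skeletal muscle genes tested, Ckm, the muscle creatine kinase, passed with 31 UMIs in all and was higher in 3 of 4 areas, with 0 UMIs on both sides in Early. None of 10 blood endothelial genes, 3 peripheral nerve genes or 6 mast cell genes passed. Of 9 neutrophil genes 2 were higher, Mmp9, a granule protease (0.89), and Cxcr2, a chemokine receptor (0.83), and neither passed in matched spots or without Advanced 1. In matched spots 1 of the list was lower, the granule peptide gene Camp (-0.93), and the median was -0.31, and without WT 1 was lower as well.

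Genes of the follicle were higher at the rim. Of 15 genes of naive and follicular B cells, 9 were higher and 0 lower, with a median log2 difference of 0.47 and a positive difference for all 15. In matched spots 13 of 15 passed and the median was 0.61. Cd79b, a chain of the B cell receptor complex, took 5.55 of every 10000 UMIs at the rim of WT, 9.87 in Early, 9.11 in Advanced 1 and 9.28 in Advanced 2, against 5.18, 6.82, 7.01 and 5.51 in the interior. Its rim value was higher in 4 of 4 areas, with the smallest gap in WT, and the log2 difference was 0.54 (SE 0.11, adjusted p = 0.00483, edgeR) and 0.64 in matched spots. Ly6d rose by 0.77 and Cr2, the complement receptor of follicular B cells and follicular dendritic cells, by 0.71 on the log2 scale, although Cr2 in WT took 0.532 of every 10000 UMIs at the rim and 0.722 in the interior. The list's share was lower away from the edge, going from 41.4 of every 10000 UMIs in the first row to 35.8 from the third row inward in WT, from 77.3 to 42.0 in Early, from 69.6 to 55.9 in Advanced 1 and from 62.5 to 33.3 in Advanced 2. The number of B cell genes called was 11 without WT, 2 without Early, 5 without Advanced 1 and 2 without Advanced 2.

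Follicular dendritic cells, the stromal cells that hold antigen and make Cxcl13, showed the same side of the node. Of 6 genes tested 4 were higher and 0 lower, with a median log2 difference of 0.53. Cxcl13 (ENSMUSG00000023078, chromosome 5 from 95956951 to 95961068 of GRCm38) took 4.70, 26.2, 15.8 and 10.8 of every 10000 UMIs at the rim of WT, Early, Advanced 1 and Advanced 2, against 3.55, 17.8, 6.16 and 4.69 in the interior. Each rim exceeded its own interior while the Early interior exceeded 3 of the 4 rims, and the log2 difference was 0.99 (SE 0.13, adjusted p = 3.49e-05, edgeR) and 1.04 in matched spots. Coch, which encodes cochlin and had the largest difference of this list, was higher by 2.53 (SE 0.24, adjusted p = 3.4e-07, edgeR) and by 2.71 in matched spots, and Mfge8, a bridge for the uptake of dying cells, by 0.70. Clu, which encodes clusterin, passed narrowly (0.37, adjusted p = 0.0454, edgeR) and did not pass in matched spots (adjusted p = 0.068, edgeR). Il22ra2, which encodes a secreted decoy receptor for interleukin-22 and stood in no list, took 0.553 of every 10000 UMIs at the rim of WT, 1.63 in Early, 1.14 in Advanced 1 and 1.31 in Advanced 2, against 0.283, 0.391, 0.307 and 0.251 in the interior. All of its rim values lay above all interior values, and the log2 difference was 2.08 (SE 0.16, adjusted p = 8.78e-09, edgeR) and 1.97 in matched spots. Of 5 germinal centre genes tested, 0 passed in either direction, with log2 differences from -0.33 to 0.34, and in matched spots 0 of 3 passed.

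High endothelial venules, through which lymphocytes enter the node from blood, had 2 of 6 genes higher at the rim and 0 lower. The list's median log2 difference was 0.31 in all spots and 0.08 in matched spots, where 1 of 6 was higher. Glycam1 (ENSMUSG00000022491, chromosome 15 from 103562759 to 103565081 of GRCm38), a mucin that carries ligands for L-selectin, took 2.72 of every 10000 UMIs at the rim of WT, 9.87 in Early, 15.8 in Advanced 1 and 6.01 in Advanced 2, against 2.10, 5.73, 5.00 and 1.60 in the interior. It was higher at the rim in 4 of 4 areas, by 1.33 on the log2 scale (SE 0.16, adjusted p = 1.48e-05, edgeR) and by 0.93 in matched spots. Madcam1, an addressin that also marks the floor of the subcapsular sinus, was higher by 0.84 (SE 0.19, adjusted p = 0.00782, edgeR) but missed the threshold in matched spots (0.73, adjusted p = 0.068, edgeR). The list had 1 call without Advanced 1 and 1 without Advanced 2. Of 9 MHC class II genes, 4 were higher and 0 lower, with H2-Eb1 at 0.41 and H2-Aa at 0.37 on the log2 scale. Neither of these passed in matched spots, although 4 of the list did. The list had 0 calls without Early and 0 without Advanced 2, and 7 without WT.

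**Figure D2:**
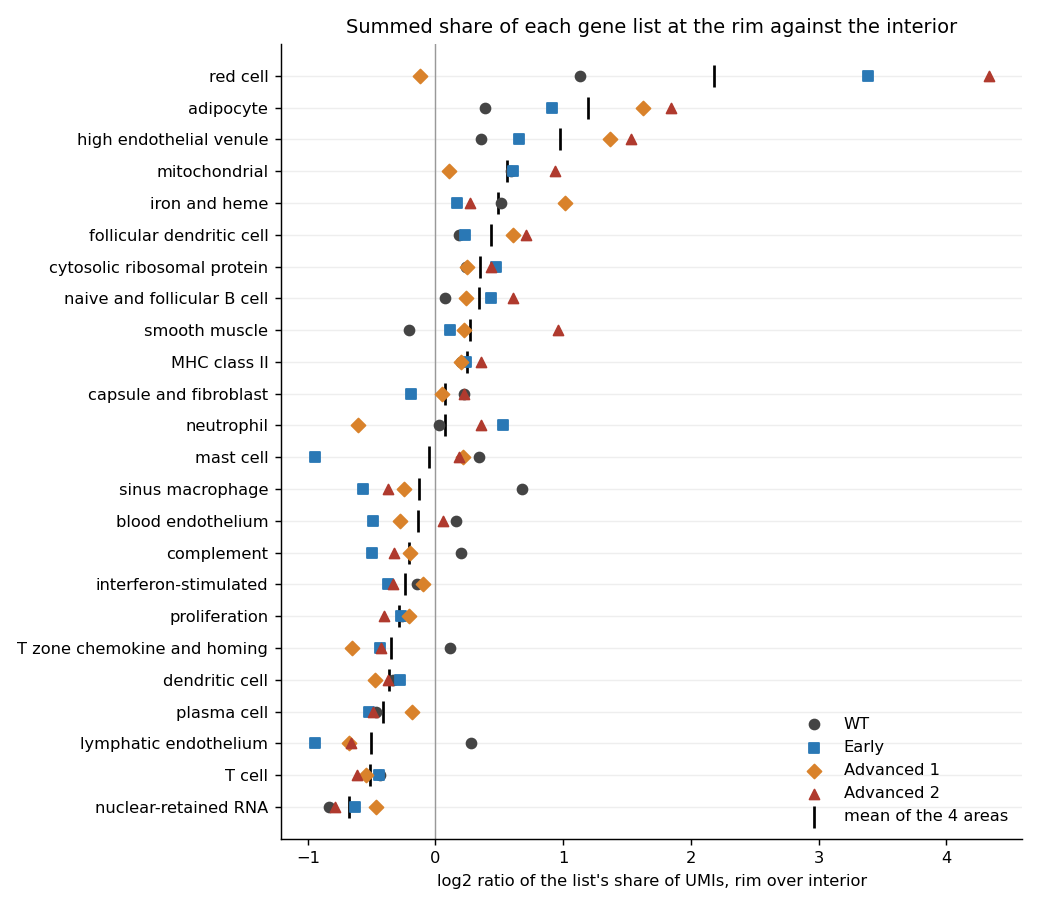
Log2 ratio of the summed UMI share of each gene list at the rim to that in the interior, 1 symbol per capture area, with the mean of the 4 areas as a vertical tick. The lists of skeletal muscle, peripheral nerve and germinal centre genes, which had few UMIs, are left out. Adipocyte, B cell, follicular dendritic cell and high endothelial venule lists lie right of 0 in 4 of 4 areas. T cell, plasma cell and dendritic cell lists lie left of 0. Sinus macrophages and lymphatic endothelium lie right of 0 in WT alone, as do the complement and T zone lists (ratios of 1.15 and 1.08 in WT). In matched spots, not drawn here, the T zone ratio in WT was 0.94.

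T cell genes were lower at the rim. Of 15 tested, 5 were lower and 0 higher, all 15 had negative differences, and the median log2 difference was -0.46. Trbc2 (ENSMUSG00000076498, chromosome 6 from 41546730 to 41548352 of GRCm38), a constant region of the T cell receptor, took 2.48 of every 10000 UMIs at the rim of WT, 1.73 in Early, 1.53 in Advanced 1 and 1.87 in Advanced 2, against 3.61, 2.17, 2.48 and 2.91 in the interior. Within each area the rim was lower, while the ranges of the rim and the interior values overlapped, and Trbc2 fell by 0.46 on the log2 scale (SE 0.11, adjusted p = 0.0113, edgeR). Lck, the kinase of T cell receptor signalling, fell by 0.54 and had all rim values below all interior values. Cd8a fell by 0.67, Cd3e by 0.51 and Tcf7, a transcription factor of naive T cells, by 0.71. The list took 13.2 of every 10000 UMIs in the first row and 20.2 from the third row inward in WT, 8.76 and 14.4 in Early, 8.76 and 13.1 in Advanced 1, and 9.72 and 15.4 in Advanced 2. In matched spots 2 of 14 passed, Trbc2 (-0.53) and Cd4 (-0.69), and the median was -0.45. Cd4 did not pass in all spots. In WT it took 1.31 of every 10000 UMIs at the rim, 0.901 in the second row and 0.585 from the third row inward, unlike the list. The calls rested on the Advanced areas, with 7 without WT, 5 without Early, 1 without Advanced 1 and 0 without Advanced 2. In the same order, the median log2 difference of the list was -0.42, -0.57, -0.46 and -0.44. Fewer cells of a type and less of its RNA per cell cannot be told apart in these sums.

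Other genes of the paracortex and of dendritic cells were lower or did not pass. Ccl21a (ENSMUSG00000094686), the chemokine that draws T cells and dendritic cells through Ccr7, took 12.0, 3.72, 7.49 and 7.10 of every 10000 UMIs at the rim and 12.9, 5.41, 11.6 and 15.2 in the interior of WT, Early, Advanced 1 and Advanced 2. It was lower at the rim in 4 of 4 areas, by the least in WT, and fell by 0.51 (SE 0.12, adjusted p = 0.0147, edgeR), though it shares its sequence with near-identical copies between which reads could have been split. Of 8 genes of T zone chemokines and homing, 0 passed in either direction, and in matched spots 2 were lower, Ccl19 (-0.51) and Cxcl12 (-0.68). Of 10 dendritic cell genes 1 was lower, Itgax, the integrin CD11c (-0.76, adjusted p = 0.00873, edgeR), which was also the 1 of 10 lower in matched spots. Irf7, 1 of 9 interferon-stimulated genes and the only one called, fell by 0.44, and C4b was the 1 of 9 complement genes called (-0.42, adjusted p = 0.0498, edgeR). In matched spots 2 of 8 interferon-stimulated genes were lower, Irf7 (-0.67) and Rsad2 (-1.80), with a median of -0.52, and 2 of 9 complement genes, C3 (-0.42) and C1ra (-0.63), with a median of -0.23. None of 10 proliferation genes passed, with differences from -0.70 to 0.22. Without any one of Early, Advanced 1 and Advanced 2, the dendritic cell, interferon and complement lists had 0 calls, while without WT 2 interferon and 4 complement genes were lower. Mfap5, Myl9, Cxcr2, Cr2, Cd8a, Cd3e, Tcf7, Flt4, Itga2b, Mrc1, Siglec1, Camp, Jchain, Xbp1, Rsad2, C1ra and Reln are named because they passed a test, after their values were seen.

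Immunoglobulin genes of plasma cells were lower at the rim only in part. Of 14 plasma cell genes 1 was lower and 0 higher, Ighg2c (ENSMUSG00000076612, chromosome 12 from 113285325 to 113288932 of GRCm38), an IgG heavy chain. It took 67.6 of every 10000 UMIs at the rim of WT, 37.6 in Early, 73.9 in Advanced 1 and 89.5 in Advanced 2, against 99.2, 52.6, 91.3 and 166 in the interior. The rim was lower in each area with overlapping ranges, and Ighg2c fell by 0.48 (SE 0.10, adjusted p = 0.00712, edgeR). Ighg2b, the most abundant gene of the list, took 177, 35.4, 96.2 and 192 of every 10000 UMIs at the rim and 222, 56.7, 110 and 217 in the interior, with a log2 difference of -0.26 that did not pass (adjusted p = 0.143, edgeR). In matched spots 7 of 13 were lower and 0 higher, among them Ighg2c (-0.87, adjusted p = 1.55e-07, edgeR), Ighg2b (-0.72, adjusted p = 8.33e-06, edgeR), Jchain, which links IgM and IgA (-0.73), Ighm, the IgM heavy chain (-0.51), and Xbp1, a transcription factor of secretory cells (-0.51). After thinning to 500 UMIs, which keeps the same spots, 2 of 12 were lower with a median of -0.25, against -0.20 in all spots, and with total UMIs as the only scaling 4 of 14 were lower. By rows, Ighg2c in Advanced 1 took 73.9 of every 10000 UMIs at the rim, 166 in the second row and 66.9 from the third row inward, and against interior spots 3 or more steps in, 0 of the list passed. In the same order Ighm in WT took 76.0, 61.2 and 55.8, while in each TNF-Tg area its rim was lowest. Ighg1, another IgG heavy chain, took 20.5, 16.2 and 12.6 in Advanced 1 and 4.94, 5.21 and 4.44 in Early. Its rim was lowest in WT and Advanced 2. The IgG genes are close paralogs that may have exchanged reads. In all spots the list had 3 lower genes without WT, 2 without Early, where 1 was higher, 2 without Advanced 1 and 0 without Advanced 2.

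**Figure D3:**
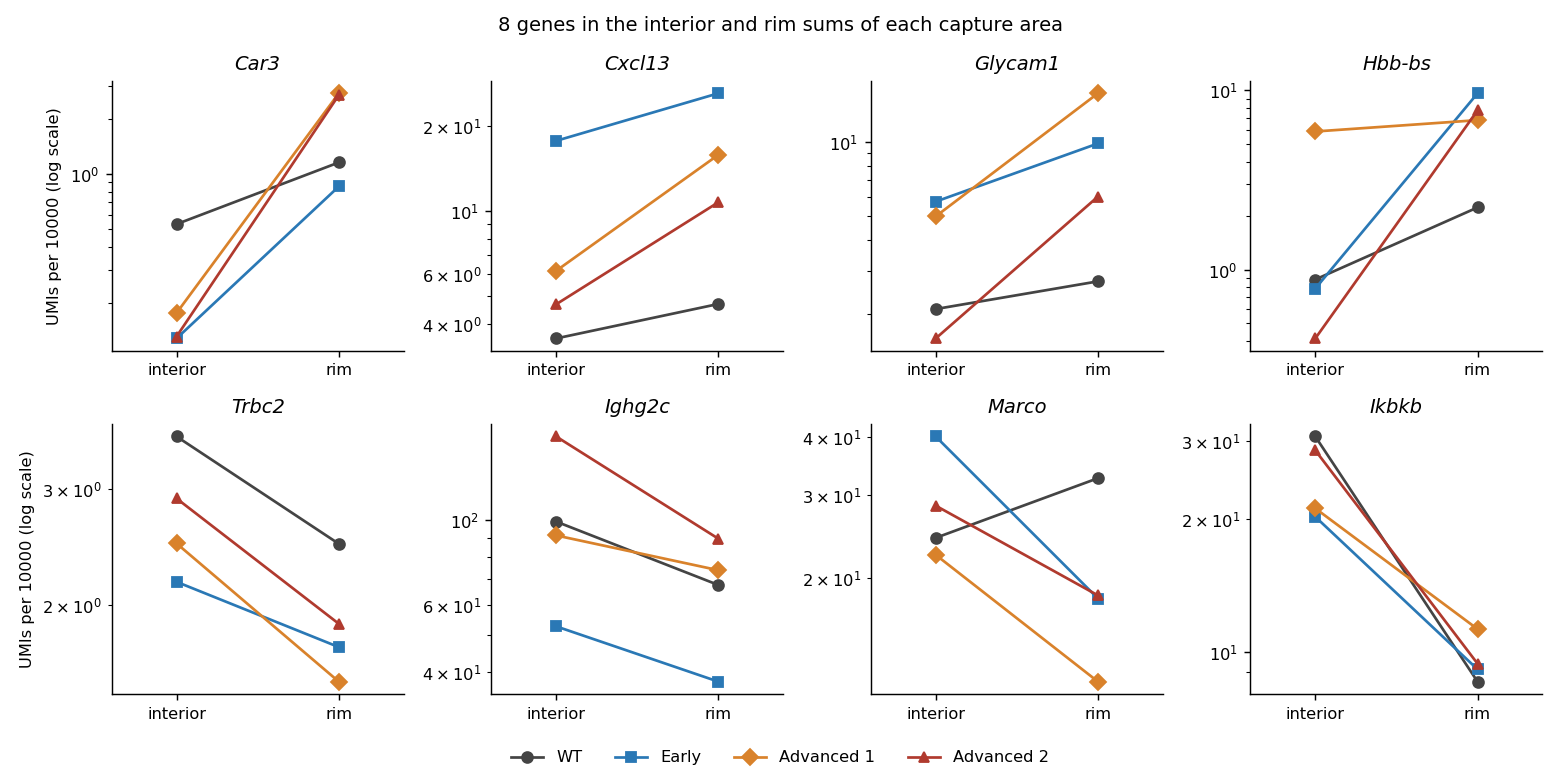
Share of UMIs (per 10000, log axis that differs between panels) of 8 genes in the interior and rim sums, 1 line per capture area and no error bars because each point is 1 sum. Car3, Cxcl13, Glycam1 and Hbb-bs are higher at the rim in 4 of 4 areas, Trbc2, Ighg2c and Ikbkb are lower in 4 of 4, and Marco is higher in WT (32.6 against 24.3) and lower in the 3 TNF-Tg areas.

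The summed shares of sinus macrophage and lymphatic endothelial genes lay on opposite sides in the 1 WT area and the 3 TNF-Tg areas, though not those of every member. Sinus macrophage genes took 59.4 of every 10000 UMIs at the rim and 37.2 in the interior of WT, whereas they took 32.4 and 47.9 in Early, 23.5 and 27.8 in Advanced 1, and 33.5 and 43.3 in Advanced 2. In WT their share was lower inward, going from 59.4 in the first row through 43.3 in the second to 20.5 from the third row on. In the same order it was 32.4, 48.3 and 47.4 in Early, 23.5, 22.8 and 29.4 in Advanced 1, and 33.5, 32.9 and 48.5 in Advanced 2, so that in the Advanced areas the second row was slightly below the rim and only the spots deeper in were above it. Lymphatic endothelial genes, led by Marco, took 62.4 at the rim and 51.6 in the interior of WT, and 31.6 and 60.9 in Early, 28.6 and 45.7 in Advanced 1, and 37.1 and 58.8 in Advanced 2. Complement genes, with rim to interior ratios of 1.15 in WT, 0.71 in Early, 0.87 in Advanced 1 and 0.80 in Advanced 2, and genes of T zone chemokines and homing, with 1.08, 0.74, 0.64 and 0.75, had the same sides. In matched spots the complement list kept its sides, with a ratio of 1.05 in WT. The T zone list did not, with 0.94 in WT, so its rim was the lower side there too. Matching on UMIs left the sides of the sinus lists in place. The macrophage list then had rim to interior ratios of 1.60 in WT, 0.53 in Early, 0.71 in Advanced 1 and 0.61 in Advanced 2. With the 4 areas in 1 fit, few of these genes passed. Of 13 sinus macrophage genes tested, Siglec1, a marker of subcapsular and medullary macrophages, was higher at the rim (0.49, adjusted p = 0.0481, edgeR) and Mrc1, a mannose receptor, lower (-0.55, adjusted p = 0.0431, edgeR). Siglec1 was higher at the rim in 4 of 4 areas and had a log2 difference of -0.08 in matched spots. Csf1r, the receptor that sustains macrophages, was higher at the rim in WT, Advanced 1 and Advanced 2 and lower in Early, and did not pass. Of 14 lymphatic endothelial genes 1 was higher, Madcam1, and 3 lower, Ccl21a, Flt4, the receptor of lymphangiogenic growth factors (-0.46), and Itga2b, an integrin of macrophage-contacting sinus endothelium (-0.54), which were lower at the rim in WT too. In matched spots 6 of 13 were lower and 0 higher, Ccl21a, Flt4 and Itga2b together with Marco (-0.78), Stab2 (-0.72) and Reln, a secreted matrix protein (-1.08), and 2 of 13 macrophage genes were lower, Mrc1 (-1.04) and C1qc (-0.67). The number of lower lymphatic endothelial genes was 7 with total UMIs as the only scaling, 7 with at least 1000 UMIs per spot and 6 with holes filled. Without WT, 5 macrophage genes and 8 lymphatic endothelial genes were lower. The macrophage list had 0 lower genes without Early, Advanced 1 or Advanced 2, and the lymphatic endothelial list 0, 0 and 1. Siglec1 passed without WT (0.58) but not without Early (0.50), Advanced 1 (0.39) or Advanced 2 (0.44). The defining macrophage genes Cd163 and Vsig4 were too sparse to be tested.

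The difference between WT and the TNF-Tg areas was tested gene by gene as an interaction of position with genotype, a comparison chosen after these values were seen, in which the 1 WT area was assumed to vary like the 3 TNF-Tg areas. Of 12217 genes, 19 (0.156%) had a larger rim excess in WT and 3 (0.0246%) a smaller one (edgeR's quasi-likelihood test, adjusted p under 0.05), while DESeq2 called 2 and 0. Of the 19, 7 were among the 13 sinus macrophage genes tested, and their median interaction was 1.07 on the log2 scale against 0.03 over all genes. Of 15 lymphatic endothelial genes 2 were called, with a median of 0.76. These list values restate the summed shares that led to the comparison and are not separate evidence. Marco (ENSMUSG00000026390, chromosome 1 from 120474538 to 120505024 of GRCm38), a scavenger receptor of medullary macrophages and sinus endothelium, took 32.6 of every 10000 UMIs at the rim of WT, 18.1 in Early, 12.0 in Advanced 1 and 18.3 in Advanced 2, against 24.3, 40.1, 22.4 and 28.5 in the interior. Only in WT was the rim the higher side, and the interaction was 1.30 (SE 0.22, adjusted p = 0.000369, edgeR) and 1.67 in matched spots. Cd209b, a lectin of marginal and medullary macrophages, took 16.4 at the rim and 9.67 in the interior of WT, and 8.29 and 14.6, 5.03 and 7.26, and 8.02 and 11.2 in Early, Advanced 1 and Advanced 2 (interaction 1.36, adjusted p = 0.000369, edgeR). Timd4, a receptor for dying cells, had an interaction of 1.43 and Ccl8, a chemokine of monocytes, of 1.38. The 3 chains of the complement starter C1q followed with 1.21 for C1qc, 1.07 for C1qb and 1.05 for C1qa, with Mrc1 at 1.31, Cd5l at 1.15 and Hmox1, which degrades heme, at 1.43. Stab2, a hyaluronan receptor of sinus endothelium, had 1.39, and Cxcl12, which holds plasma cells and other Cxcr4 positive cells, 1.25. On the other side, the adipocyte genes Cfd (-2.70) and Car3 (-2.70) had a smaller rim excess in WT, where Cfd took 4.01 of every 10000 UMIs at the rim and 2.70 in the interior. The counts were 19 and 9 without Early, 50 and 17 without Advanced 1, and 12 and 5 without Advanced 2. The WT nodes also differed in geometry, with 89 of their 138 interior spots in the second row and 49 further in. The second row held 139 of 299 interior spots in Early, 102 of 574 in Advanced 1 and 132 of 493 in Advanced 2. Contacts between nodes counted as interior, and pieces of at least 20 touching spots numbered 1 in WT, 4 in Early, 1 in Advanced 1 and 2 in Advanced 2. The part of this geometry in the difference was not tested.

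**Figure D4:**
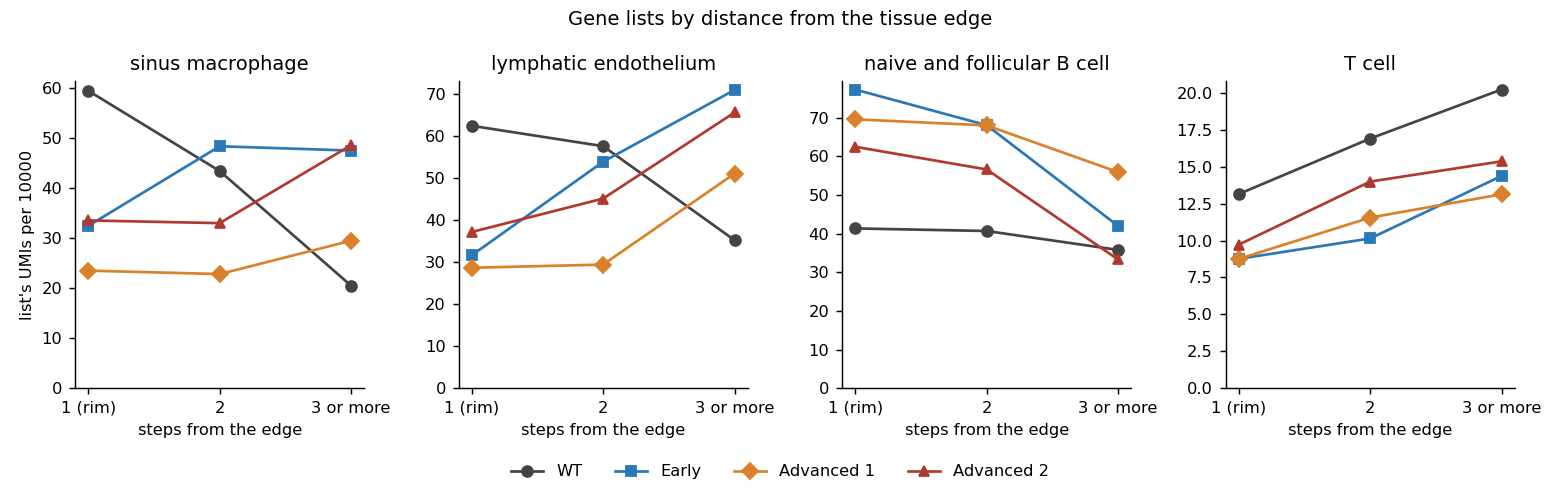
Summed share of 4 gene lists (UMIs per 10000, axis from 0) in spots 1, 2 and 3 or more steps from the tissue edge, 1 line per capture area and no error bars because each point is 1 sum. Sinus macrophage and lymphatic endothelial genes are lower inward in WT (59.4 to 20.5 and 62.4 to 35.2) and higher from the third row inward than at the rim in the TNF-Tg areas, while B cell genes are lower and T cell genes higher inward in 4 of 4 areas.

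Red cell genes were higher at the rim, with 4 of 5 called and a median log2 difference of 1.65, and in matched spots 3 of 4 were higher (median 1.68). The summed share was higher at the rim in 3 of 4 areas, while in Advanced 1 it was 13.1 of every 10000 UMIs at the rim and 14.2 in the interior. In matched spots its rim to interior ratio was 1.05 in WT, 13.7 in Early, 1.04 in Advanced 1 and 7.33 in Advanced 2. The ratio in WT was 2.19 in all spots, so the matched excess lay mainly in Early and Advanced 2. Hbb-bs, a beta globin, took 2.22 of every 10000 UMIs at the rim of WT, 9.63 in Early, 6.82 in Advanced 1 and 7.73 in Advanced 2, against 0.879, 0.783, 5.89 and 0.412 in the interior. In Advanced 1 the interior held nearly as much as the rim, unlike in the other 3 areas, and the log2 difference was 2.35 (SE 0.39, adjusted p = 0.000546, edgeR). Hba-a1, an alpha globin, was higher by 2.19, and reads may have been split between the globin copies. Of the 3 red cell genes with an adjusted p from DESeq2, 1 passed. The list had 2 calls without Early (median 1.07), 4 without Advanced 1 (median 3.50) and 2 without Advanced 2 (median 0.91). When holes in the section were filled it had 2, with a median of 0.81. After thinning each spot to 500 UMIs, red cell UMIs were found in 10.6% of rim spots in WT, 8.33% in Early, 18.8% in Advanced 1 and 13.4% in Advanced 2, against 2.90%, 4.68%, 28.6% and 3.04% of interior spots, so that in Advanced 1 the interior was the higher side. A test of the rim difference between the Advanced areas and Early called 5 genes, 0.0409% of 12217 tested, but its spread came from the 2 Advanced areas and was borrowed for the single area of Early (edgeR's quasi-likelihood test with 1 residual degree of freedom, 423 genes at an unadjusted p under 0.05), and DESeq2 called 0, with 5 at an unadjusted p under 0.05. Besides Mcpt4, a mast cell protease (1.41), these were the globins Hbb-bt (-3.30), Hbb-bs (-1.90), Hba-a2 (-1.90) and Hba-a1 (-1.77). The globin calls rested on Advanced 1 and are given as values of these areas only: without it, with no test possible, the values were -0.50, 0.55, 1.39 and 1.71. Ferritin genes, which store iron, were the 2 of 8 iron and heme genes called, Fth1 (0.62, adjusted p = 0.00284, edgeR) and Ftl1 (0.60, adjusted p = 0.00245, edgeR), both higher at the rim in 4 of 4 areas, although Ftl1 did not pass in matched spots (0.27). Without Advanced 1, 1 of the list passed. Hamp, which encodes the iron hormone hepcidin, was higher by 1.92 (SE 0.25, adjusted p = 2.96e-05, edgeR) and by 1.83 in matched spots, with 388 of its 489 UMIs at the rim of Early and 1 UMI in all of WT. Fth1 took 68.3 of every 10000 UMIs at the rim of Advanced 1 and 30.9 in the interior, its widest gap.

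Several differences were smaller in matched spots, on both sides. Of 77 genes of cytosolic ribosomal proteins, 54 were higher at the rim and 0 lower (median log2 difference 0.44), but in matched spots 4 were higher (median 0.23), and after thinning to 500 UMIs, which keeps the same spots, 36 (median 0.41). Of 12 mitochondrial genes, 9 were higher in all spots (median 0.67) and 7 in matched spots (median 0.56), and 8 of 10 after thinning (median 0.72), so that these changed little. An example is mt-Cytb at 0.73 and 0.56. The summed mitochondrial share had rim to interior ratios of 1.51 in WT, 1.52 in Early, 1.08 in Advanced 1 and 1.92 in Advanced 2. In Advanced 1 this share was 130 of every 10000 UMIs at the rim and 136 from the third row inward. The ribosomal list had 17 calls without Early, 12 without Advanced 2 and 26 against interior spots 3 or more steps in, and the mitochondrial list 4 without Advanced 2. In the interior, Ikbkb (ENSMUSG00000031537, chromosome 8 from 22659212 to 22706589 of GRCm38), which encodes a kinase of the NF-kB pathway, took 30.6 of every 10000 UMIs in WT, 20.2 in Early, 21.1 in Advanced 1 and 28.5 in Advanced 2, against 8.58, 9.14, 11.3 and 9.42 at the rim. All interior values lay above all rim values, and Ikbkb fell at the rim by 1.28 (SE 0.13, adjusted p = 5.64e-07, edgeR), yet in matched spots its difference was -0.12 (adjusted p = 0.741, edgeR). The same held for Metap1d (-1.24 and -0.06), Cdk11b (-1.14 and -0.10), Leng9 (-1.04 and -0.03), Ewsr1 (-0.98 and -0.03) and Zc3h8 (-0.95 and -0.14), given for all and for matched spots. Dynlt1a (-1.88), Ccdc152 (-1.26), Cxadr (-1.08) and Cuedc1 (-0.96) also missed the threshold in matched spots, at -0.53, -0.90, -1.16 and -0.67. Of the 12 genes named for the interior, 2 passed in both comparisons. Sfrp2, a secreted Wnt modulator of fibroblasts, took 0.245 of every 10000 UMIs at the rim of WT, 0.512 in Early, 0.687 in Advanced 1 and 0.342 in Advanced 2, against 0.440, 1.06, 2.28 and 0.644 in the interior. It was lower at the rim in each area, by 1.16 in all spots (adjusted p = 2.96e-05, edgeR) and by 1.16 in matched spots (adjusted p = 6.82e-05, edgeR). Ccl2, the monocyte chemokine, fell by 1.08 (SE 0.12, adjusted p = 6.42e-06, edgeR) and had a difference of -1.36 in matched spots. Neat1, a nuclear RNA, fell by 0.67 in all spots and did not pass in matched spots (-0.25, adjusted p = 0.362, edgeR).

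**Figure D5:**
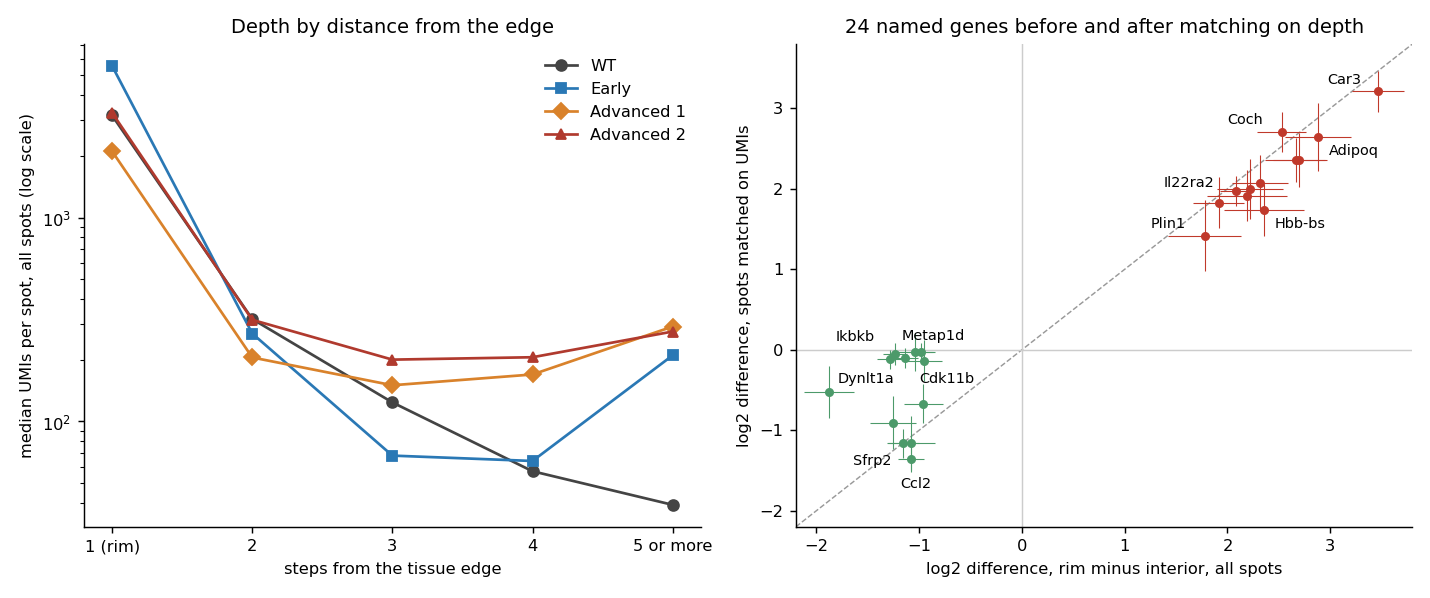
Left, the median number of UMIs per in-tissue spot (log axis) by steps from the tissue edge, 1 line per capture area. Right, the log2 difference between rim and interior of the 12 genes named for each side in all spots (horizontal) and in spots matched on UMIs (vertical), with standard errors as bars and equality dashed. The rim genes in red stay near the dashed line, from Car3 (3.46 and 3.21) to Plin1 (1.78 and 1.42), while several interior genes in green, such as Ikbkb, lie at 0 after matching.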

How the data were processed

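The authors deposited counts: whole numbers of UMIs per gene and spot for each of 4 capture areas, with spot positions and an in-tissue mark. The submitters' processing notes name Space Ranger 1.1.0, Seurat 4.0.3, R 4.1.1 and the builds mm10 and GRCm38, and positions of genes were taken from the GENCODE annotation of GRCm38. The mask joins nodes that touch, so contacts between nodes count as interior. UMIs of spots with at least 500 were summed per gene, position and area (8 sums), and tested in R 4.3.3 with edgeR 4.0.16 (glmQLFit, TMM factors, filterByExpr, area as a block, Benjamini-Hochberg over all genes tested) on 32287 features. Standard errors are the log2 difference over the root of the F statistic. The code was tested on simulated data. Named genes were the 12 with the largest difference each way (adjusted p under 0.05, at least 200 UMIs, same sign of the difference in share in 4 of 4 areas, no Gm or Rik symbols), the up to 4 members of each of 27 lists with the most UMIs, and up to 5 interaction genes each way. Members and lists were chosen with earlier results of these data known. DESeq2 1.42.0, other scalings, filters, depth ranges, definitions of rim and left-out areas were alternatives.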

Additional observations from a re-analysis of the deposited data

Results flagged for a closer look

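The following genes were picked out because the size of their rim difference differed between groups of areas by edgeR's quasi-likelihood test of the interaction, with Benjamini-Hochberg adjustment, in which Early and WT are 1 area each and were assumed to vary like the others. Values are log2 interactions. Between the Advanced areas and Early they were -3.30 for Hbb-bt, -1.90 for Hbb-bs, -1.90 for Hba-a2, -1.77 for Hba-a1 and 1.41 for Mcpt4, which took 0.699 of every 10000 UMIs at the rim and 1.52 in the interior of Early.

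Between WT and the 3 TNF-Tg areas, the rim excess was larger in WT for Igha (1.91), Cemip2 (1.69), F8 (1.61), Timd4 (1.43), Hmox1 (1.43), Stab2 (1.39), Ccl8 (1.38), Cd209b (1.36), Mrc1 (1.31), Marco (1.30), Ninj1 (1.26), Cxcl12 (1.25), C1qc (1.21), Iglc1 (1.15), Cd5l (1.15), Selenop (1.12), C1qb (1.07), C1qa (1.05) and Ctsc (1.04). It was smaller in WT for Cfd (-2.70), Car3 (-2.70) and Igfbp6 (-3.70). These genes were named after their values were seen, and the WT side of each rests on 1 capture area. Igha, the IgA heavy chain, took 5.84 of every 10000 UMIs at the rim and 1.44 in the interior of WT, yet its interaction in matched spots was -0.0044.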

How the results depend on the processing

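The 339 genes higher and 197 lower at the rim became 199 and 70 with DESeq2, 208 and 381 with total UMIs only, 31 and 25 among spots of 500 to 2000 UMIs, 91 and 41 after thinning each spot to 500 UMIs, 100 and 68 in matched spots, and, without a UMI minimum, 483 and 407. Without the area as a block, so without the pairing of rim and interior, 11 and 7 passed. Leaving out 1 area at a time gave 92 to 538 higher (lowest without Advanced 2, highest without WT) and 37 to 373 lower. Of the 5 Advanced against Early genes, 0 passed with DESeq2, 0 among spots of 500 to 2000 UMIs and 0 after thinning. The 19 genes with a larger rim excess in WT became 2 with DESeq2, 29 without a filter on low counts, 12 with total UMIs only, 3 among spots of 500 to 2000 UMIs, 4 after thinning and 12 to 50 with 1 TNF-Tg area left out. The 3 with a smaller excess became 0, with DESeq2, 7 without the filter, 1 among spots of 500 to 2000 UMIs, and 5 to 17. The sign turned for Cfd (-0.37) and Fabp4 (-0.13) among spots of 500 to 2000 UMIs, for the uncalled Csf1r (-0.038) and Dcn (-0.17) there and Dcn in matched spots (-0.11), for Siglec1 (-0.082) and the WT interaction of Igha (-0.0044) in matched spots, and for the Advanced against Early values of Hba-a2 (0.82), Hbb-bs (1.12) and Hba-a1 (2.45) among spots of 500 to 2000 UMIs. Leaving out 1 Advanced area gave -3.65 to 1.39 for Hba-a2, -3.45 to 0.55 for Hbb-bs and -3.22 to 1.71 for Hba-a1. The uncalled Camp went from -0.63 without Advanced 2 to 0.031 without Advanced 1. The causes were not tested, except that the depth ranges, thinning and matching use fewer UMIs and the left-out areas fewer samples. The difference in spots kept held its direction under every alternative run (44.6 to 54.2 points). Of 61 called genes named for rim against interior, 58 kept their direction in every alternative that gave them an adjusted p and 4 were also called in each, Car3, Adipoq, Il22ra2 and Ckm, of which Ckm had one in 10 alternatives and Car3 in 18. Other definitions of the rim moved the higher and lower counts over all genes by less than 1.5 times, but not those of every list. With the interior 3 or more steps in, ribosomal calls went from 54 to 26, lower lymphatic endothelial calls from 3 to 5 and capsule calls from 1 to 2. Neutrophil calls went from 2 higher and 0 lower to 1 and 1, and complement gained 1 higher call. The single plasma cell and interferon calls were lost, and Ckm, the single skeletal muscle call, was not tested there. With holes filled, red cell calls went from 4 to 2, lower lymphatic endothelial calls from 3 to 6, and capsule, plasma cell and complement calls from 1 to 3, and the interferon call was lost. DESeq2 gave no adjusted p for 221 of the 536 genes called by edgeR and called 258 of the other 315. It called 0 sinus macrophage genes, with an adjusted p for 1 of the 2 called by edgeR. It also called 0 interferon-stimulated genes, with an adjusted p for the 1 called by edgeR.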
